A study of Homo sapiens with 5 samples.

Results

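The focal adhesion plaque genes described here are 34 genes chosen by name from the 25382 genes of the count table: the plaque, adaptor, LIM domain and kinase components of focal adhesions, with the integrins left out. Of these, 33 had enough reads to be tested. The cells were MDA-MB-231, an established human breast cancer line that is triple-negative and mesenchymal, grown in serum-containing DMEM with an antibiotic/antimycotic. Shear stress had separated them into weakly adherent cells (3 libraries, dated 6, 12 and 15 March 2019) and strongly adherent cells (2 libraries, dated 6 and 15 March 2019). The labels name no allele, drug or other treatment in either group. Nothing in the labels ties the libraries to separate cultures. The p-values therefore measure the spread between these 5 samples alone, pooled in part over genes, and some of it may be technical. The shear separation defines the groups, so a response to shear and a difference that preceded it cannot be told apart.

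Focal adhesions are the sites where integrins in the cell membrane are tied to the actin cytoskeleton. Talin binds the integrin tail, kindlins help to activate it, and vinculin, alpha-actinin, filamin and tensin carry the link to actin. Focal adhesion kinase and Src phosphorylate the docking proteins paxillin and p130Cas, and integrin-linked kinase forms a complex with PINCH and parvin. LIM domain proteins of the zyxin and PDZ-LIM families gather where actin is under tension, and several of them also enter the nucleus. In carcinoma cells this plaque is known for its part in spreading, traction and migration.

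Reads assigned to genes numbered 19630386 to 21707459 per library. The mesenchymal markers VIM, CD44 and AXL were at 1306 CPM or more in every library (CPM are gene reads scaled to a common library size by TMM), while ESR1 and PGR had no read in any library, which allows levels of up to 0.153 CPM in the library with the fewest reads. Also expected to be low, CDH1 had 1.18 to 2.07 CPM, EPCAM 19.4 to 25.8 CPM and ERBB2 82.8 to 93.9 CPM. EPCAM and ERBB2 were thus expressed in every library. The summed level of 10 G2/M genes was 5589, 5415 and 4013 CPM in weakly adherent libraries, against 3256 and 2851 CPM in strongly adherent libraries. Its part in the results below was not tested. In bulk samples, fewer cells of a kind and less RNA per cell cannot be told apart.

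Most plaque genes differed little between weakly and strongly adherent cells. Only the LIM-only adaptor FHL2 fell, by 0.35 on the log2 scale (edgeR adjusted p = 0.049), and none of the 33 rose. That call was lost in limma-voom and when any weakly adherent library was left out. Of all genes, 0.918% were lower and 1.77% higher. Under a fit that pairs libraries by date, 8 members (24.2%) were lower, beside 5.28% of all genes. Among them were ACTN1, PDLIM5, CAV1 and KANK2. The 8 also held LIMS1 and NEDD9, which did not pass when limma-voom treated dates as random effects. NEDD9 had log2 ratios of -0.80 on 6 March and 0.0074 on 15 March. In the paired fit 1 member was higher, the zyxin relative LPP, beside 6.20% of all genes. The summed level of all 34 genes was 11225, 11083 and 10871 CPM in weakly adherent libraries, against 11801 and 11262 CPM in strongly adherent libraries. As a share of all gene reads the mean was 1.10% ± 0.0019 in weakly adherent cells (SD, n = 3), against 1.155% ± 0.016 in strongly adherent cells (SD, n = 2). A two-sided exact permutation test gave p = 0.2 for that share, the smallest that 3 libraries against 2 allow.

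The test was edgeR's quasi-likelihood F test over all 13297 genes with enough reads, at a Benjamini-Hochberg adjusted p under 0.05, and fold changes are weakly over strongly adherent. It called 0 members higher, beside 1.77% of all genes, and 1 member lower, beside 0.918% of all genes. At an unadjusted p under 0.05, 1 member was higher, beside 7.86% of all genes, and 7 were lower, beside 6.35%. DESeq2's Wald test called 1 member higher, beside 2.36% of all genes, and 1 lower, beside 1.09%. By limma-voom, 0 members were called in either direction, beside 1.67% of all genes higher and 0.842% lower. With the date as a block, edgeR called 1 of 33 members higher, beside 6.20% of all genes, and 8 lower (24.2%), beside 5.28% of all genes. That fit leaves 1 residual degree of freedom, so its standard errors draw mostly on spread pooled over genes. Its p-values say little of a gene's own spread between dates. NEDD9 had a standard error of 0.09 there, with log2 ratios of -0.80 on 6 March and 0.0074 on 15 March. The fit takes nothing from the weakly adherent library of 12 March, which has no pair. With the date as a random block, limma-voom called 1 member higher, beside 5.04% of all genes, and 7 lower, beside 4.05%. Of the 8 called lower by edgeR with the block, LIMS1 and NEDD9 did not pass there (adjusted p = 0.21 and 0.29), while TNS1 did (adjusted p = 0.034). The members' median log2 fold change was -0.07, against -0.00054 over all genes tested. Of the 33, 22 had a negative and 11 a positive log2 fold change.

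The direction was also read within each date. Weakly adherent cells were lower in both dated pairs for 17 members (51.5%), beside 31.0% of all genes, and higher in both for 7 members (21.2%), beside 31.9% of all genes. The members' median log2 ratio was -0.09 in the pair of 6 March and -0.03 in that of 15 March. All weakly adherent libraries lay below both strongly adherent ones for 9 members (27.3%), beside 14.5% of all genes, and above them for TLN1 and LPP, 6.06% of the members, beside 15.5% of all genes. Apart from TNS1, the tested members had between 3372 and 350827 reads over the 5 libraries, and standard errors of the log2 fold change between 0.07 and 0.18.

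**Figure D1:**
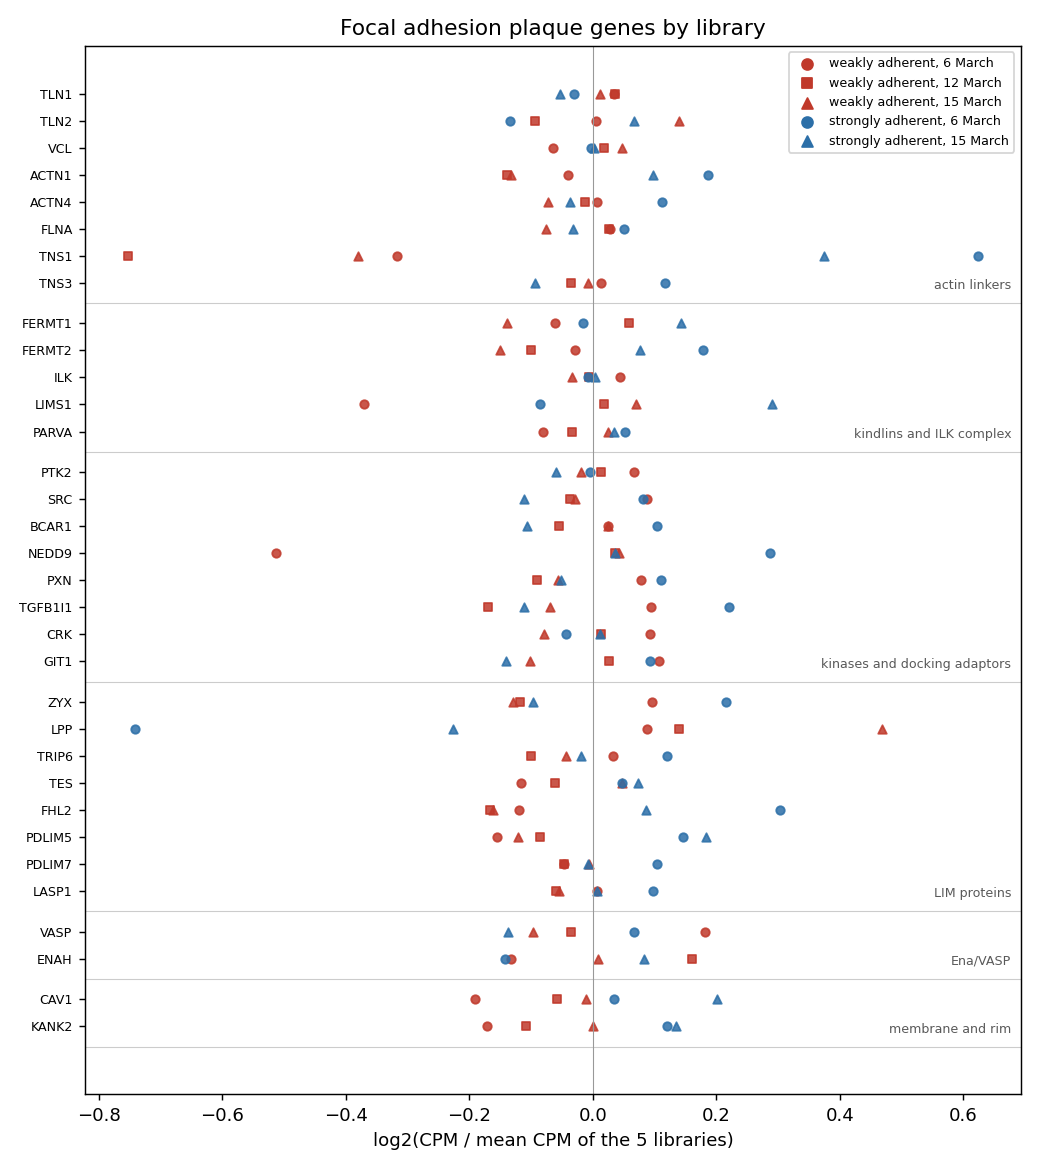
Level of each tested member in each library, as log2 of its CPM over its mean CPM in the 5 libraries (x axis), with members grouped by component class down the page; red marks weakly adherent and blue strongly adherent libraries, and the marker shape gives the date. All members but TNS1, LIMS1, NEDD9, LPP and FHL2 lie within 0.3 of their mean in every library, LPP has both strongly adherent libraries on the left, and FHL2, PDLIM5, ACTN1 and KANK2 have both on the right.

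Among the 8 actin linkers, which connect integrins to filaments, none passed without the date block and ACTN1 was lower with it. The class had a median log2 fold change of -0.02. ACTN1 is an alpha-actinin that crosslinks actin in non-muscle cells. It had 639, 596 and 599 CPM in weakly adherent libraries, against 747 and 703 CPM in strongly adherent libraries. The groups did not overlap, and the ratio was nearly the same on both dates, with log2 ratios of -0.23 on 6 March and -0.23 on 15 March. The log2 fold change was -0.25 (SE 0.07, edgeR adjusted p = 0.12), and -0.23 with the date block (SE 0.06, adjusted p = 0.0058). Its close relative ACTN4 had 1186, 1171 and 1123 CPM in weakly adherent libraries, against 1276 and 1152 CPM in strongly adherent libraries, which overlap.

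The integrin-proximal linkers lay close together in the groups. Talin, the protein that couples the integrin tail to actin, had 724, 724 and 712 CPM of TLN1 in weakly adherent libraries, against 691 and 681 CPM in strongly adherent libraries. These do not overlap, but the log2 fold change of 0.070 was about the size of its standard error, 0.069 (edgeR adjusted p = 0.77). Vinculin (VCL), which reinforces stretched talin, differed by 0.0023 (SE 0.07), the actin crosslinker filamin A (FLNA) by -0.02 (SE 0.08), TLN2 by 0.05 (SE 0.10) and tensin 3 (TNS3), a linker of fibrillar adhesions, by -0.03 (SE 0.08). Tensin 1 (TNS1) was almost silent, with 16, 11 and 16 reads in weakly adherent libraries, against 31 and 27 reads in strongly adherent libraries. The groups did not overlap, and the log2 fold change was -0.96 (SE 0.30, edgeR adjusted p = 0.14, or 0.11 with the date block). With the block and the trend with coding or transcript length removed, TNS1 passed in edgeR (adjusted p = 0.041 and 0.042).

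Kindlins and the complex of integrin-linked kinase had a median log2 fold change of -0.11 over the 5 tested genes. Kindlin-2 (FERMT2), which binds the integrin beta tail beside talin, had 87.9, 83.7 and 80.8 CPM in weakly adherent libraries, against 101.6 and 94.6 CPM in strongly adherent libraries. All 3 weakly adherent libraries were lower. The log2 fold change was -0.22 (SE 0.08, edgeR adjusted p = 0.18), and -0.22 with the date block (SE 0.07, adjusted p = 0.018). Kindlin-1 (FERMT1), the epithelial form, overlapped at 32.3, 35.1 and 30.6 CPM in weakly adherent libraries, against 33.3 and 37.2 CPM in strongly adherent libraries.

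The pseudokinase ILK was level, with a log2 fold change of 0.0043 (SE 0.07), and its partner alpha-parvin (PARVA), which binds actin, had -0.07 (SE 0.07). PINCH1 (LIMS1), the third partner, followed the date more than the adhesion group, with 36.5, 47.8 and 49.6 CPM in weakly adherent libraries, against 44.5 and 57.7 CPM in strongly adherent libraries. The groups overlap, while within each date the weakly adherent library was lower. Left unblocked, the estimate for LIMS1 was -0.20 (SE 0.16, edgeR adjusted p = 0.69), and with the block -0.25 (SE 0.08, adjusted p = 0.018), or 0.062 with the trend with coding length removed as well. With the date as a random block in limma-voom the adjusted p of LIMS1 was 0.21, and in edgeR without the strongly adherent library of 15 March its log2 fold change was 0.0091. LIMS1 has near-identical copies in the genome, so its count is uncertain. PARVB, the beta form of parvin, had only 16 reads in all 5 libraries and was not tested.

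Among kinases and docking adaptors, 0 of 8 were called without the block and 1 with it, and the median log2 fold change was 0.0085. Focal adhesion kinase (PTK2) had 169, 163 and 159 CPM in weakly adherent libraries, against 161 and 155 CPM in strongly adherent libraries, a log2 fold change of 0.05 (SE 0.07). The tyrosine kinase SRC differed by 0.02 (SE 0.09), the scaffold p130Cas (BCAR1) by -0.0040 (SE 0.08) and paxillin (PXN), the docking protein that recruits kinases and vinculin, by -0.05 (SE 0.08). The adaptor CRK, which binds phosphorylated p130Cas and paxillin, differed by 0.03 (SE 0.08), and GIT1, a paxillin-binding regulator of Arf GTPases, by 0.03 (SE 0.09). Hic-5 (TGFB1I1), the paxillin relative that also acts as a transcription cofactor, had -0.11 (SE 0.12). None of these differences exceeded its standard error.

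NEDD9, the p130Cas relative linked to migration of tumour cells, was the exception within the class and rested on the libraries of 6 March. It had 30.9, 45.2 and 45.4 CPM in weakly adherent libraries, against 53.8 and 45.2 CPM in strongly adherent libraries. The weakly adherent library of 6 March was the lowest and the strongly adherent library of 6 March the highest. The log2 ratio was -0.80 on 6 March and 0.0074 on 15 March. Left unblocked, the estimate for NEDD9 was -0.29 (SE 0.17, edgeR adjusted p = 0.55). With the date block it was -0.38 (SE 0.09, adjusted p = 0.00052), a value that averages those dates. Its adjusted p was 0.29 in limma-voom when the block was random. Without the weakly adherent library of 6 March the unblocked estimate was -0.13 (edgeR adjusted p = 0.67), and without the strongly adherent one -0.16.

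LIM proteins held both the only call and the largest difference among well expressed members. Of 8, 7 had a negative log2 fold change, with a median of -0.10. FHL2, a LIM-only adaptor that also acts as a transcription cofactor, had 59.2, 57.3 and 57.5 CPM in weakly adherent libraries, against 79.4 and 68.3 CPM in strongly adherent libraries. The weakly adherent libraries lay close together and below both strongly adherent ones, of which that of 6 March was the higher. FHL2 fell 1.27-fold, or by 0.35 on the log2 scale (SE 0.08, edgeR adjusted p = 0.049), and with the date block by 0.34 on the log2 scale (SE 0.07, adjusted p = 0.00011). The call was lost when any of the weakly adherent libraries was left out. Its edgeR adjusted p became 0.060, 0.15 and 0.14 with the weakly adherent library of 6, 12 or 15 March omitted. With the strongly adherent library of 6 or 15 March omitted, the log2 fold change was -0.24 or -0.45. It was thus smallest without the strongly adherent library of 6 March. Those fits leave the strongly adherent group without a replicate, so they say little of whether the call holds. The call was also lost with the trend with coding length removed (edgeR adjusted p = 0.091) or that with transcript length (0.055). In limma-voom no member was called lower.

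PDLIM5, a PDZ-LIM scaffold that binds alpha-actinin, was nearly level within each group. It had 81.8, 85.8 and 83.7 CPM in weakly adherent libraries, against 100.7 and 103.4 CPM in strongly adherent libraries. The gap between the groups was wider than the spread within either group. The log2 ratio was -0.30 on 6 March and -0.30 on 15 March. The log2 fold change was -0.28 (SE 0.07, edgeR adjusted p = 0.058), and -0.30 with the date block (SE 0.07, adjusted p = 0.00030).

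LPP, a zyxin-family protein of adhesions and cell contacts, was the only member higher with the date block. It had 68.2, 70.6 and 88.7 CPM in weakly adherent libraries, against 38.4 and 54.8 CPM in strongly adherent libraries. Each weakly adherent library was above both strongly adherent ones, and on each adhesion side the library of 15 March was above that of 6 March. The log2 fold change was 0.70 (SE 0.18, edgeR adjusted p = 0.11), and 0.76 with the date block (SE 0.07, adjusted p = 4.8e-22), which is 1.69-fold. Its size depended on the strongly adherent libraries: unblocked, it was 0.47 without that of 6 March (edgeR adjusted p = 0.24) and 0.99 without that of 15 March (adjusted p = 0.0040). It also passed without the weakly adherent library of 6 March (adjusted p = 0.048). LPP has a longest annotated transcript of 18277 bases, of which 1836 are coding. Correcting each library for its dependence on transcript length brought the log2 fold change of LPP to 0.34 (edgeR adjusted p = 0.16), or 0.37 with the date block as well (adjusted p = 3.2e-05), while the same correction for coding length left it at 0.70 (adjusted p = 0.058).

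None of the other LIM proteins passed in either fit. Zyxin (ZYX), which moves to tensed actin fibres, had 303, 261 and 259 CPM in weakly adherent libraries, against 329 and 265 CPM in strongly adherent libraries, so that the dates differ more than the groups. Its relative TRIP6 had a log2 fold change of -0.09 (SE 0.08), testin (TES), which binds zyxin, -0.10 (SE 0.07), PDLIM7 -0.08 (SE 0.07) and the actin-binding protein LASP1 -0.09 (SE 0.07). LASP1 had 1107, 1057 and 1062 CPM in weakly adherent libraries, against 1179 and 1107 CPM in strongly adherent libraries, which do not overlap by a margin of under 1 CPM.

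**Figure D2:**
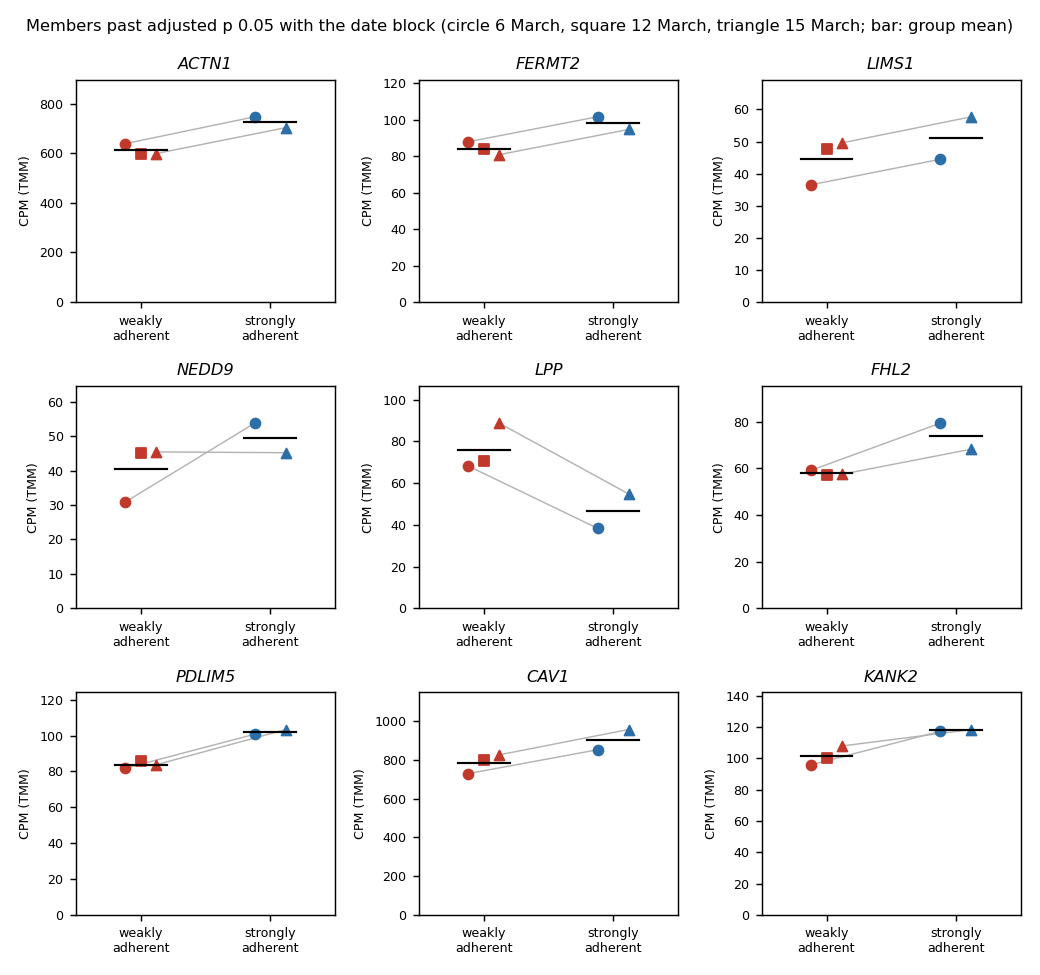
CPM (y axis, from 0) of the 9 members past an adjusted p of 0.05 with the date block, in weakly adherent libraries (left, red) and strongly adherent libraries (right, blue); grey lines join libraries of the same date, the marker shape gives the date, and black bars are group means. The lines of LPP descend from left to right, those of FHL2, PDLIM5, ACTN1, CAV1, KANK2, FERMT2 and LIMS1 climb on both dates, and that of NEDD9 climbs on 6 March only.

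Both membrane and rim components passed as lower with the date block only. Caveolin-1 (CAV1), the scaffold of caveolae that also affects focal adhesion turnover, had 729, 800 and 825 CPM in weakly adherent libraries, against 852 and 956 CPM in strongly adherent libraries. The log2 fold change was -0.20 (SE 0.08, edgeR adjusted p = 0.27), and -0.22 with the date block (SE 0.07, adjusted p = 0.010), or -0.20 (0.063) with the trend with coding length removed as well. The unblocked value was -0.11 with the strongly adherent library of 15 March left out (edgeR adjusted p = 0.79). KANK2, a talin-binding protein at the adhesion rim that links it to microtubules, had 95.9, 100.2 and 108 CPM in weakly adherent libraries, against 117 and 119 CPM in strongly adherent libraries. Its log2 fold change was -0.22 (SE 0.08, edgeR adjusted p = 0.18), and -0.21 with the date block (SE 0.07, adjusted p = 0.019). Neither gene's groups overlapped. The actin polymerisation factors VASP and ENAH (Mena) did overlap, at log2 fold changes of 0.05 (SE 0.10) and 0.04 (SE 0.10).

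**Figure D3:**
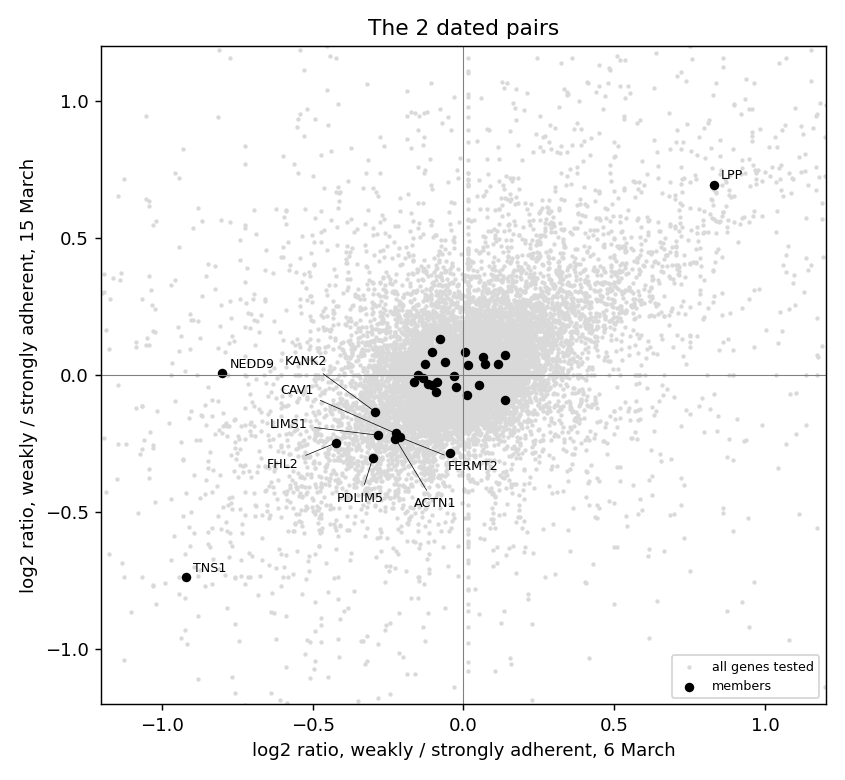
Log2 ratio of weakly over strongly adherent cells in the pair of 6 March (x axis) and of 15 March (y axis), for all genes tested (grey) and the members (black), with the axes limited to 1.2 in each direction. FHL2, PDLIM5, ACTN1, CAV1, KANK2, FERMT2 and LIMS1 sit together at the lower left, LPP at the upper right, and NEDD9 at -0.80 on the x axis and near 0 on the y axis.

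Several members are known from other work as targets of serum response factor, which binds the CArG box, an A/T-rich element, when actin assembles and its cofactor MRTF is released. Promoter windows were therefore searched for the box, and the windows with a match are shown because they include ACTN1, FHL2 and LPP, which differed in opposite directions. RefSeq windows (GRCh38.p14, 250 bases before to 50 after each annotated start) were available for 30 of the 34 members, and 6 of these (20%) had a CArG box in at least 1 window, beside 1.60% of all 27305 genes with a window. By window it was 8 of 65 member windows (12.3%), beside 1.29% of all 35116. The pattern of the box, CC and GG around a run of A or T, is its own reverse complement, so that a search of one strand covers both. The other motif searched, CATTCC on either strand, is the core bound by TEAD factors. It can share the end bases of the box, as in TES, where GGAATG begins at the last bases of the box. It was in 8 of the 30 members (26.7%), beside 16.7% of all genes. By window the shares were close, at 10 of 65 member windows (15.4%), beside 14.03% of all windows. Members had more windows per gene (65 for 30 genes, against 35116 for 27305), which raises their share by gene. Sequences run 5′ to 3′ on the gene's strand, with the box in capitals and up to 25 bases on each side.
FHL2, chr2:105399076-105399135, minus strand, 59 bases before a start: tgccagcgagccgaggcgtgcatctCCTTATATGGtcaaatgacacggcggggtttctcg
FHL2, chr2:105438580-105438639, minus strand, 85 bases before another start: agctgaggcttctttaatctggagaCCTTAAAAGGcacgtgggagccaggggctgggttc
ACTN1, chr14:68977703-68977762, minus strand, 171 bases before a start: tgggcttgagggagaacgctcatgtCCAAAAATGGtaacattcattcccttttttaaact
LPP, chr3:188212504-188212563, plus strand, 183 bases before a start: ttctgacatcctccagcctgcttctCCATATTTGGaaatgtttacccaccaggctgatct
FLNA, chrX:154374694-154374753, minus strand, 94 bases before a start: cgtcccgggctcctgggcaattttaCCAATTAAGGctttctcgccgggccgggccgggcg
TGFB1I1, chr16:31473129-31473188, plus strand, 51 bases before a start: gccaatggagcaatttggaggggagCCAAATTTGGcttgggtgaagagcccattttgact
TES, chr7:116222703-116222745, plus strand, 242 bases before a start: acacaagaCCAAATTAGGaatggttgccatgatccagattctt

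Of the 6 genes with a box, FHL2 and ACTN1 were lower and LPP was higher with the date block, while FLNA (log2 fold change -0.02), TGFB1I1 (-0.11) and TES (-0.10) passed in neither fit. Which annotated start the cells use was not measured. A match is a description of the letters, not a bound site.

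Levels per length placed a few components far above the rest. Per kilobase of the longest coding sequence, CAV1 averaged 1469 ± 93.8 CPM in weakly adherent cells (SD, n = 3), against 1693 ± 138 CPM in strongly adherent cells (SD, n = 2), and LASP1 averaged 1373 ± 35.03 CPM in weakly adherent cells, against 1460 ± 65.3 CPM in strongly adherent cells. In weakly adherent cells their ranges overlap. ACTN4 and FLNA followed at 424 ± 12.1 and 416 ± 16.8 CPM per kilobase in weakly adherent cells, again within their spread. FAK (PTK2) at 49.8 ± 1.51 CPM per kilobase lay above SRC at 28.3 ± 1.39, and TLN1 at 94.5 ± 0.88 lay below VCL at 128 ± 5.12, all in weakly adherent cells. The order depends on the length used: per kilobase of the longest transcript FLNA came first, at 388 ± 15.7 CPM in weakly adherent cells, and TLN1 lay above VCL, at 81.6 ± 0.76 and 54.7 ± 2.18 CPM.

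**Figure D4:**
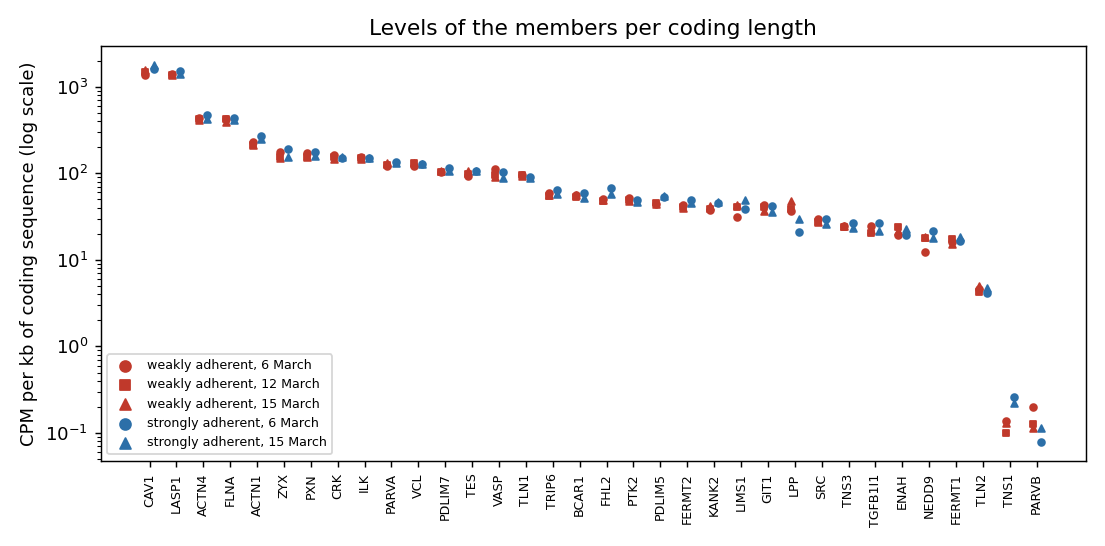
Level of each of the 34 members in each library as CPM per kilobase of its longest coding sequence (y axis, log scale), ordered by the mean of the 5 libraries, with weakly adherent libraries in red on the left of each pair and strongly adherent ones in blue on the right. CAV1 and LASP1 lie at 1350 or more in every library, and TNS1 and PARVB at 0.26 or less.

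Paralogue shares were taken on the same coding-length scale. TLN1 made up 95.4% ± 0.40 of talin in weakly adherent cells (SD, n = 3), against 95.3% ± 0.49 in strongly adherent cells (SD, n = 2). TNS3 made up 99.5% and 99.0% of tensins 1 and 3, and PARVA 99.9% and 99.9% of the parvins, in weakly and strongly adherent cells. Paxillin against Hic-5 (87.8% ± 0.36 and 87.4% ± 0.92), VASP against ENAH (82.0% ± 2.69 and 81.9% ± 3.11) and FERMT2 against FERMT1 (71.7% ± 1.41 and 73.2% ± 2.51) overlapped between weakly and strongly adherent libraries. Shares did not overlap for ACTN1 against ACTN4, at 34.5%, 33.3% and 34.3% in weakly adherent libraries, against 36.4% and 37.4% in strongly adherent libraries. PDLIM5 made up 29.6%, 30.6% and 29.5% of PDLIM5 and PDLIM7 in weakly adherent libraries, against 31.8% and 34.1% in strongly adherent libraries. Among zyxin, LPP and TRIP6, the LPP share was 13.6%, 15.7% and 18.9% in weakly adherent libraries, against 7.57% and 12.4% in strongly adherent libraries. NEDD9 held 18.03%, 25.4% and 24.5% of NEDD9 and BCAR1 in weakly adherent libraries, against 26.6% and 26.1% in strongly adherent libraries, and the lowest share was again that of 6 March.

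The longest members did not follow the length trend of these libraries. Genes with a coding sequence over 6000 bases had a median log2 fold change of 0.30 (328 genes), whereas the 3 such members had 0.07 (TLN1, 7623 bases), 0.05 (TLN2, 7626 bases) and -0.02 (FLNA, 7941 bases). After correction of each library for its dependence on coding length, TLN1 stood at -0.23 (edgeR adjusted p = 0.24), TLN2 at -0.24 (0.26) and FLNA at -0.33 (0.12). With the date block as well, TLN1 was lower by 0.24 on the log2 scale (adjusted p = 0.012) and FLNA by 0.36 (adjusted p = 0.00016), while TLN2 had adjusted p = 0.12. In that fit 1 member was higher, beside 4.52% of all genes, and 9 were lower, beside 5.23% of all genes. Corrected for coding length without the block, the actin linkers had a median of -0.24. The lower TLN1 and FLNA depended on the length used. With the block and transcript length in place of coding length, TLN1 stood at -0.032 (edgeR adjusted p = 0.87) and FLNA at -0.12 (0.41). Whether the length trend is technical was not tested.

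**Figure D5:**
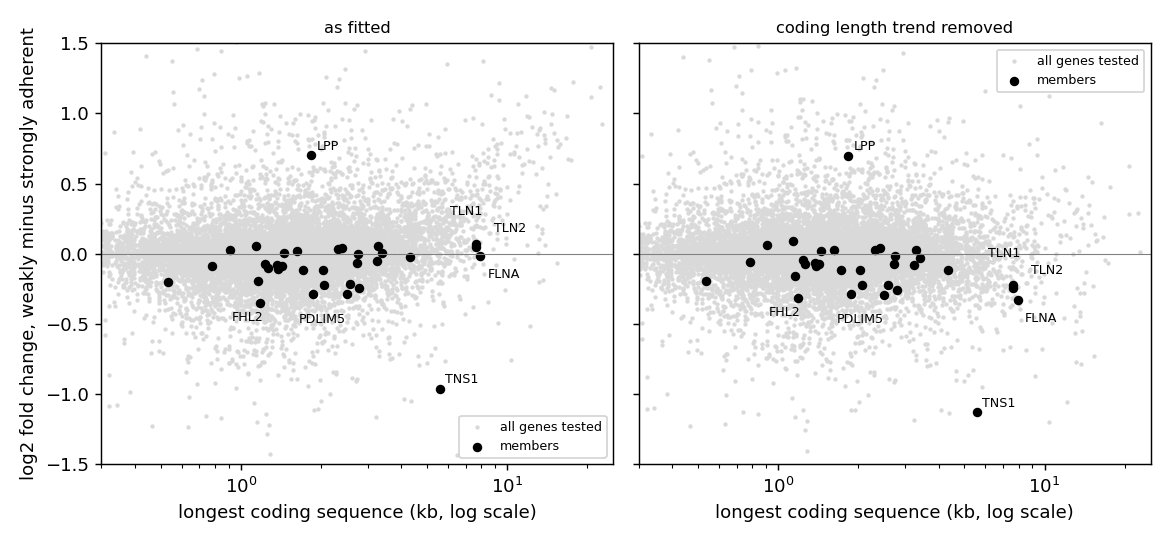
Log2 fold change of weakly minus strongly adherent cells (y axis, limited to 1.5 in each direction) against the longest coding sequence in kilobases (x axis, log scale), as fitted (left) and with the trend of each library with coding length removed (right), for all genes tested (grey) and the members (black). TLN1, TLN2 and FLNA lie near 0 on the left, below the bulk of equally long genes, and at -0.23, -0.24 and -0.33 on the right.

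By edgeR, dates separated 6 of the members, and by DESeq2's Wald test fewer. In the 4 libraries of 6 and 15 March, with adhesion as a covariate, 2 members were higher on 15 March, beside 6.74% of the 13249 genes tested there, and 4 were lower, beside 2.55%. LPP was higher by 0.44 on the log2 scale (SE 0.08, edgeR adjusted p = 9.4e-07) and LIMS1 by 0.40 (SE 0.08, adjusted p = 2.7e-05). ZYX was lower by 0.27 (adjusted p = 0.0017), VASP by 0.25 (adjusted p = 0.0085), TGFB1I1 by 0.25 (adjusted p = 0.044) and GIT1 by 0.22 (adjusted p = 0.024). DESeq2's Wald test called 2 members in this comparison, against 6 by edgeR. The edgeR fit of these 4 libraries leaves 1 residual degree of freedom, as with the date block. The dates and whatever differed between those days, which the labels do not give, cannot be told apart.

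Other genes of the focal adhesion pathway showed the same small scale. Of 56 such genes with a row, 54 were tested and edgeR called 0 in either direction, with 6 higher and 11 lower at an unadjusted p under 0.05, beside 7.86% and 6.35% of all genes, DESeq2's Wald test 1 lower and limma-voom 0. Their median log2 fold change was -0.06. With the date block 6 were higher, beside 6.20% of all genes, and 12 lower, beside 5.28%. WTIP, a zyxin-family LIM protein, had the smallest p, with 15.5, 14.05 and 15.1 CPM in weakly adherent libraries, against 22.7 and 18.6 CPM in strongly adherent libraries (log2 fold change -0.47, SE 0.12, edgeR adjusted p = 0.052, or 0.0013 with the date block). PDLIM1, a PDZ-LIM protein like PDLIM5, had 80.9, 76.8 and 75.7 CPM in weakly adherent libraries, against 98.0 and 91.8 CPM in strongly adherent libraries (log2 fold change -0.29, SE 0.08, edgeR adjusted p = 0.071, or 0.0013 with the date block).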

How the data were processed

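The authors deposited raw counts per gene symbol and log2 values, for RNA purified on RNeasy columns, made into TruSeq Stranded libraries and sequenced as 50 bp single-end reads, per the labels' protocols. Per the submitters' processing notes, the build was hg19 and the tools included STAR, HTSeq, DESeq2, FastQC and cutadapt. For versions, annotation and strand setting, nothing is given in the sources used here. Reads of overlapping or antisense genes may thus sit with either gene. The log2 values deposited by the authors were, as tested on the file, the count over a size factor, plus 1, on the log2 scale. HTSeq's 5 rows that name no gene stayed out; reads outside genes were 6.49% to 8.08% and not unique 16.0% to 16.8% of all reads listed.

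The adhesion label set the groups. The main test was edgeR 4.0.16 in R 4.3.3 (TMM, filterByExpr, robust quasi-likelihood fit) on the deposited counts, tried first on simulated data. Pair ratios used 0.5 added reads. Titles give the date, so same-date libraries were taken as pairs; the correlation of deviations from group means was 0.41 for the pair of 6 March and 0.24 for that of 15 March, and with 2 strongly adherent libraries these values are not independent. Replicates differed by more than sampling noise, with chi-square values of 7.54 to 12.6 per degree of freedom. Length trends (natural spline, 5 degrees of freedom) used the longest transcript or coding sequence per symbol in GENCODE 29, annotated on another build than the authors' and used for no coordinates. Alternatives were DESeq2 1.42.0 size factors and Wald test, limma-voom and limma 3.58.1 on the log2 values, other filters, the date block, length trends and each library left out.

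The members and gene lists were chosen with earlier results of these data known. Full statistics are given for members past an adjusted p of 0.05 with or without the date block, and from the other pathway genes the 2 with the smallest p are named. Figures were drawn with matplotlib 3.10.9.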

Additional observations from a re-analysis of the deposited data

Results flagged for a closer look

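In 9 of the 33 tested members (27.3%), beside 37.2% of all genes, the weakly adherent library was higher in one dated pair and lower in the other. With 1 library per date and group, this difference between dates was not tested. By far the widest was that of NEDD9, whose log2 ratio was higher on 15 March than on 6 March by 0.81, at 0.0074 against -0.80. For the others the log2 ratio of the 15 March pair minus that of the 6 March pair was 0.11 for VCL, 0.19 for TNS3, -0.088 for ILK, 0.21 for BCAR1, 0.17 for TGFB1I1, -0.23 for CRK, 0.15 for PDLIM7 and -0.084 for ENAH.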

How the results depend on the processing

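The date block moved the counts most. Members higher numbered 1 with the date block in edgeR or as a random effect in limma-voom, and with the block and either length trend removed. The number was also 1 in DESeq2's Wald test, which had no block, and 0 in the other fits of all 5 libraries without the block. Members lower numbered 8 with the block in edgeR, 7 in limma-voom with the random block, 9 and 10 with the block and the trend with coding or transcript length removed, 2 with no filter, and 0 in limma-voom, with at least 1 CPM in 2 libraries, on the log2 values with pseudocounts of 1 and 5, and with the coding length trend removed. With 1 library left out, members higher and lower each ranged from 0 to 1. The block with transcript length was chosen after the data were seen.

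Over all genes, higher and lower calls numbered 825 and 702 with the block, 670 and 538 with the random block, 601 and 696 with the block and the coding length trend removed, and 666 and 773 with transcript length; 131 were higher with the coding length trend removed alone, against 235 without, and the split of higher to lower calls then was 131 to 138. No filter gave 203 lower. With 1 library left out the ranges were 82 to 238 higher and 34 to 103 lower. Other pathway genes numbered 6 higher and 12 lower with the block, 5 and 9 with the random block, and 2 and 12 with the block and either length trend removed; 1 was lower with DESeq2's size factors, its Wald test or the coding length trend removed, 2 with transcript length, 3 with no filter, and 0 to 1 with 1 library left out. The members called between dates numbered 2 in DESeq2's Wald test, against 6.

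With 1 library left out, the median log2 fold change ranged from -0.10 to -0.019 over all members, -0.088 to 0.0036 for actin linkers, -0.17 to -0.025 for kindlins and the ILK complex, -0.088 to 0.073 for kinases and adaptors and -0.14 to -0.036 for LIM proteins. The median of actin linkers was -0.24 with the coding length trend removed, -0.22 with the block as well, and -0.10 and -0.085 with transcript length; that of kindlins and the ILK complex was -0.17 with the block (-0.17 with coding and -0.17 with transcript length removed as well, and -0.17 with transcript length alone); that of Ena/VASP was -0.059 and -0.090 with transcript length, without and with the block. Per transcript length, the share of PDLIM5 differed by -1.91 and that of LPP by 1.11 percentage points, weakly minus strongly adherent.

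Signs turned in 52 of the member values, in 17 members. With the coding length trend removed these were TLN1 (-0.23, with the block -0.24), TLN2 (-0.24, -0.21) and VCL (-0.032, -0.041), and with transcript length TLN1 (-0.032, -0.032), TLN2 (-0.14, -0.093), VCL (-0.075, -0.078) and ENAH (-0.19, -0.27). BCAR1 turned with the date block (0.026), the random block (0.012), the block with coding length (0.019) and transcript length without and with the block (0.0032, 0.040). ENAH turned with the block (-0.033, with coding length -0.035), and VCL with it (-0.0070), with the random block (-0.0024), and with DESeq2's size factors (-0.00046) and Wald test (-0.00046). With 1 library left out, the ranges that crossed 0 were TLN2 -0.048 to 0.16, VCL -0.016 to 0.035, ACTN4 -0.13 to 0.0089, FLNA -0.053 to 0.024, TNS3 -0.12 to 0.082, ILK -0.016 to 0.027, LIMS1 -0.37 to 0.0091, SRC -0.068 to 0.12, BCAR1 -0.10 to 0.10, PXN -0.13 to 0.030, TGFB1I1 -0.26 to 0.067, CRK -0.016 to 0.076, GIT1 -0.075 to 0.15, ZYX -0.26 to 0.049, VASP -0.041 to 0.16 and ENAH -0.067 to 0.16. Of these values, TLN1 with the block and coding length (adjusted p = 0.012) and ENAH with the block and transcript length (0.0074) were past the threshold; the cause was not tested. At the depth of TNS1 (SE 0.30), a difference as small as that of FHL2 was not detectable.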

Other observations

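Single genes of the other pathway list are given here that were chosen after their values were seen. AJUBA, a zyxin-family protein that binds the Hippo kinase LATS, had 255, 236 and 210 CPM in weakly adherent libraries, against 298 and 274 CPM in strongly adherent libraries (log2 fold change -0.29, edgeR adjusted p = 0.12, or 9.3e-05 with the date block). CSRP1, a small LIM protein of actin filaments, had 154, 169 and 167 CPM in weakly adherent libraries, against 193 and 192 CPM in strongly adherent libraries (log2 fold change -0.24, edgeR adjusted p = 0.12, or 0.0015 with the date block).

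The Src-family kinase YES1 had 111, 130 and 121 CPM in weakly adherent libraries, against 96.5 and 107 CPM in strongly adherent libraries (edgeR adjusted p = 0.18). Its adjusted p was 0.042 under the date block, but 0.060 once coding length was corrected for as well. FYN had 22.9, 22.1 and 21.6 CPM in weakly adherent libraries, against 28.6 and 25.5 CPM in strongly adherent libraries (edgeR adjusted p = 0.17). Its adjusted p was 0.031 under the date block, but 0.052 once transcript length was corrected for as well. Caveolin-2 (CAV2), which assembles with CAV1, had 129, 144 and 154 CPM in weakly adherent libraries, against 148 and 195 CPM in strongly adherent libraries, which overlap (log2 fold change -0.27, edgeR adjusted p = 0.36, or 0.0011 with the date block).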
